A study of Mus musculus with 21 samples.

Results

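The SLC25 family, the carrier proteins of the inner mitochondrial membrane, was followed through a time course of dexamethasone and tumour necrosis factor alpha in fat cells. The genes were taken by name: every gene whose symbol on the array annotation starts with Slc25a, together with the uncoupling proteins Ucp1 and Ucp3, each read from the single-gene probe set with the highest mean over all arrays. That gave 46 carriers among 18194 genes. Of these, 39 were bright enough to be tested and 7 were not. Ucp2 is not analysed here, because none of the single-gene probe sets used carries its name.

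The cells were 3T3-L1 adipocytes, a mouse preadipocyte line that had been differentiated into fat cells for 14 days. Of the 21 Affymetrix arrays, 3 each came from cells given dexamethasone (Dex, 20 nM, a synthetic glucocorticoid) for 2 h, 24 h or 6 d, 3 each from cells given the cytokine tumour necrosis factor alpha (TNF, at a dose the labels do not give) for the same times, and 3 from untreated cells (control, labelled 0 h). All groups share the cell line and the differentiation, and the labels name the replicates of each group as biological. A single untreated group serves all times, so time in culture under a treatment and the treatment itself cannot be told apart. The series asks how transcription changes early, midway and late while adipocytes become insulin resistant.

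Carriers of this family move metabolites across a membrane that is otherwise closed to them. They bring ADP and phosphate in and send ATP out, exchange malate, citrate, aspartate and glutamate between matrix and cytosol, and admit acylcarnitines, amino acids, iron and the cofactors that matrix enzymes need. In white fat cells the citrate and dicarboxylate carriers are known for feeding fatty acid synthesis, and in brown fat cells Ucp1 is known for letting protons back into the matrix and so releasing heat.

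Values are log2 expression, and a change is the treated mean minus the control mean on that scale, ± its standard error (SE). Each group has 3 arrays unless 2 are named. A carrier was called, and is said to have risen or fallen, when limma's two-sided p, adjusted over all 12156 tested genes, was below 0.05. With 3 arrays in each group, the smallest p of an exact two-sided permutation test is 0.1, and the calls rest on limma's pooled spread. Replicate values are given in the order 1, 2, 3. Levels of different carriers come from different probe sets and are not compared with each other. In cultures measured in bulk, fewer cells of a type and less RNA per cell cannot be told apart.

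Replicate 2 of TNF 6 d stood apart from the other arrays. Its values had a standard deviation of 2.04, against 2.44 to 2.51 on the other 20 arrays. Its 3' minus 5' difference over the Actb and Gapdh control probe sets was 2.00. It was 0.68 to 0.78 on 3 further arrays, namely the replicates numbered 2 of TNF 2 h and of Dex 6 d and number 3 of TNF 24 h, against 0.02 to 0.28 on the other 17. Results are therefore given with all arrays. For carriers against control, a changed call or sign is also given without this array, which left 12069 genes tested and 2 arrays of TNF 6 d. For comparisons between treated groups, counts are given in both fits, but only some values without this array. Because the spread is pooled, leaving it out also altered calls in groups to which it does not belong, while the changes themselves there stayed as they were. Adipocyte markers averaged 12.44 to 12.55 at Dex 2 h, 12.46 to 12.60 at Dex 6 d, 12.20 to 12.32 at TNF 2 h, 11.52 to 12.02 at TNF 24 h and 12.01 to 12.13 in the other 2 arrays of TNF 6 d, against 12.72 to 12.79 in control. Of these adipocyte markers, Fabp4 overlapped control in every group, while Retn read 10.43 to 11.20 at TNF 24 h, against 13.12 to 13.61. The mean of preadipocyte and fibroblast markers was 9.37 to 9.51 at Dex 24 h, 8.78 to 9.07 at Dex 6 d and 10.31 to 10.55 in those 2 TNF 6 d arrays, against 9.84 to 10.10 in control. At Dex 24 h Pdgfra lay above control (11.72 to 11.83, against 11.14 to 11.56), Cd34 overlapped it and the others lay below. At TNF 6 d, with all arrays, Pdgfra and Pdgfrb lay above control and the others overlapped it. The mean of 6 macrophage markers was 5.09 to 5.37 at TNF 24 h, against 4.74 to 4.92 in control. Of these markers, 3 never passed the brightness level of 5.34. Cd68 read 6.57 to 7.08 at TNF 24 h, against 5.12 to 5.35 in control, and Csf1r 6.58 to 7.52, against 6.44 to 6.45. The ranges of Adgre1, Ptprc, Itgam and Lyz2 overlapped those of control. With all arrays only Cd68 was called there, and without TNF 6 d replicate 2 Csf1r was called too. The part of all these marker shifts in the carriers' changes was not tested.

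With all arrays, 4 carriers were called at 2 h of either agent: Slc25a33, Slc25a29, Slc25a18 and Ucp3. The 250 bases before the start site of each are shown from RefSeq (mouse build GRCm38.p6), because these carriers were called at the earliest time. Capitals mark every match, on either strand, to 6 motifs. These were the glucocorticoid receptor site AGAACA, the NF-kB element, the nuclear receptor site AGGTCA, the E-box CACGTG, the GC box GGGCGG and the TATA box TATAAA. The stretches are chr4:149774268-149774517 on the minus strand for Slc25a33, chr12:108835877-108836126 on the minus strand for Slc25a29, chr6:120773518-120773767 on the plus strand for Slc25a18 and chr7:100472741-100472990 on the plus strand for Ucp3, each written 5′ to 3′.
Slc25a33: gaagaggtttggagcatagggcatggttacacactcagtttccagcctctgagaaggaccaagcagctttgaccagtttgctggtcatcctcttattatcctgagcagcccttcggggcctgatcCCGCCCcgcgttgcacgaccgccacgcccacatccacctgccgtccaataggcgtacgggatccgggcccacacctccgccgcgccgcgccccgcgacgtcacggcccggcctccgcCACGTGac
Slc25a29: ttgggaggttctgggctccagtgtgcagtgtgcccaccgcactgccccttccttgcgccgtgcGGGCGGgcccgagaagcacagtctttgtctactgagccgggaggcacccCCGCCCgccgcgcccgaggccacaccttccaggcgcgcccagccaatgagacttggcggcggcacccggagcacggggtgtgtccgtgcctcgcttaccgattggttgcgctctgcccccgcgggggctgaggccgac
Slc25a18: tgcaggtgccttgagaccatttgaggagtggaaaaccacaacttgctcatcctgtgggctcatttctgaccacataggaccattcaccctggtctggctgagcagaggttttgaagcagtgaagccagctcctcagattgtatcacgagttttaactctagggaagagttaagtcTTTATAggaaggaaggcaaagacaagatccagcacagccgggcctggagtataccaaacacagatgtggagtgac
Ucp3: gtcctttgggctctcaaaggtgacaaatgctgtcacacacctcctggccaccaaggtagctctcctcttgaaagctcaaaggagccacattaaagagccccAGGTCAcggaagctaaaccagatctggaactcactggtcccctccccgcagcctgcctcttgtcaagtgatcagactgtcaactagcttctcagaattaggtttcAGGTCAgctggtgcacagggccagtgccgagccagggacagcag
The Slc25a33 stretch held CACGTG at position -8 from the start site and GGGCGG at -125, and that of Slc25a29 held GGGCGG at -187 and -138. The Slc25a18 stretch held TATAAA at -75, and that of Ucp3 held AGGTCA at -149 and -44. Among 32851 mouse promoters of the same length, 6.02% held CACGTG, 32.7% GGGCGG, 12.4% TATAAA and 14.0% AGGTCA. Neither AGAACA, found in 16.1% of those promoters, nor the NF-kB element, found in 1.21%, occurred in these 4 windows. A match describes letters in this window and is no evidence of binding.

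Counts of called carriers against control are given beside the share of all genes called in the same direction. At 2 h of Dex, 2 of 39 carriers rose, beside 1.66% of all tested genes called higher and 0.814% called lower. Dex for 24 h raised 2, beside 2.06% of genes higher and 2.11% lower. After 6 d of Dex, 3 rose and 2 fell, beside 3.22% and 5.08%. Each of these counts rests on 2 to 5 carriers.

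Under TNF, 1 carrier rose and 2 fell at 2 h, beside 2.95% and 0.872% of all genes. At 24 h, 2 rose and 4 fell, beside 5.41% and 3.27%. Slc25a18, counted among the rises at 2 h and 24 h, was tested only because treated arrays passed the brightness level. By 6 d, 13 of 39 fell (33.3%), beside 10.7% of all genes lower and 4.52% higher. The median change of the 39 carriers at TNF 6 d was -0.50, against -0.23 over all genes, and without replicate 2 it was -0.20 against -0.05. Where a direction had no adjusted call, unadjusted p below 0.05 were 3 carriers lower at Dex 2 h (7.69%, beside 3.79% of all tested genes), 2 lower at Dex 24 h (5.13%, beside 6.12%) and 0 higher at TNF 6 d (beside 8.39%).

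Without TNF 6 d replicate 2, more carriers were called in every comparison against control except TNF 6 d, where fewer were. Dex then raised 4 and lowered 2 carriers at 2 h (background 4.32% and 2.84%), 5 and 1 at 24 h (6.5% and 6.86%), and 6 and 7 at 6 d (10.5% and 13.7%). TNF raised 1 and lowered 4 at 2 h (6.67% and 4.13%), 4 and 10 at 24 h (13.3% and 12.5%), and 3 and 8 at 6 d (10.6% and 10.0%). Of the 13 carriers called at TNF 6 d with all arrays, 7 were also called without that array. In a fit of only TNF 6 d and control, with all 3 TNF arrays, limma called 0 carriers and 7 had an unadjusted p below 0.05. The share of all genes in that fit is not given, so these counts are not read as particular to the carriers. In all, 20 carriers (51.3%) were called in at least 1 comparison against control with all arrays, beside 25.5% of all tested genes. Without the array these were 25 carriers (64.1%) beside 48.9% of genes, and in either fit 28 (71.8%) beside 49.7%, which leaves 11 tested carriers with no call.

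All 4 arrays with a raised 3' minus 5' difference were also left out together, a setting chosen after seeing the data, with 2 arrays remaining in each of their groups and 11993 genes tested. Dex then raised 6 and lowered 5 carriers at 2 h (background 7.4% and 5.42%), 6 and 3 at 24 h (12.3% and 11.3%), and 5 and 9 at 6 d (12.9% and 18.3%). TNF raised 1 and lowered 8 at 2 h (7.88% and 11.8%), 5 and 17 at 24 h (14.5% and 16.1%), and 4 and 19 at 6 d (15.8% and 17.8%). Calls against control made with all arrays were all made in this setting too, in the same direction.

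**Figure D1:**
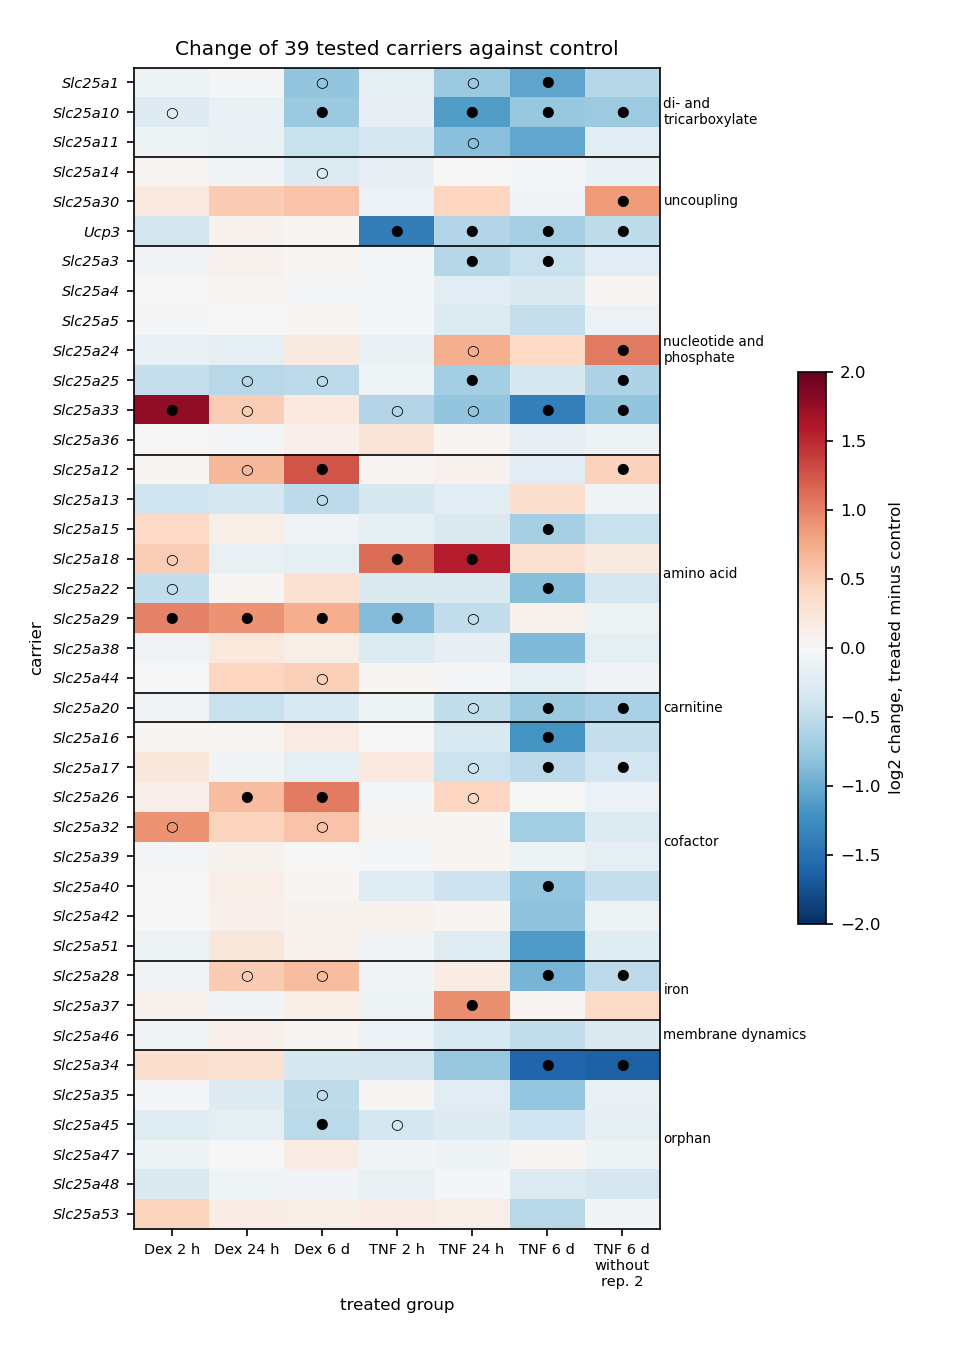
Log2 change of the 39 tested carriers (rows, grouped by cargo) in each treated group minus control (columns), with the last column showing TNF 6 d without replicate 2. Filled circles mark calls in the fit shown, open circles calls made only without that array. The 13 filled circles at TNF 6 d all sit on lowered carriers, and without the array 3 of 11 sit on raised ones.

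Of the di- and tricarboxylate carriers, Slc25a10 fell under both agents and Slc25a1 at TNF 6 d. Slc25a10 exchanges malate or succinate for phosphate. It read 12.27, 12.31 and 12.29 in control, 11.99, 12.03 and 12.05 at 2 h, 12.15, 12.17 and 12.13 at 24 h and 11.63, 11.39 and 11.63 at 6 d of Dex. The corresponding values were 12.19, 12.08 and 12.11 at 2 h, 11.22, 11.18 and 11.12 at 24 h and 11.63, 11.44 and 11.50 at 6 d of TNF. Every treated array, of both agents and all times, lay below every control array, and the 3 arrays of TNF 24 h were the lowest. Slc25a10 fell by 0.74 ± 0.11 (adjusted p = 0.00014) on the log2 scale at Dex 6 d. TNF gave a change of -1.12 ± 0.11 (adjusted p = 9.34e-07) at 24 h, a 2.17-fold lower level, and of -0.76 ± 0.11 (adjusted p = 0.000187) at 6 d, and all 3 calls held whichever single array was left out. Its second probe set moved the same way, by -1.15 at Dex 6 d and -2.09 at TNF 24 h. Without TNF 6 d replicate 2, the smaller change at Dex 2 h, -0.27 ± 0.08 (adjusted p = 0.0395), was called as well.

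Slc25a1, the citrate carrier that exports citrate for lipid synthesis, gave 12.58, 12.52 and 12.33 in control, 12.47, 12.31 and 12.33 at 2 h, 12.56, 12.56 and 12.22 at 24 h and 11.83, 11.50 and 11.76 at 6 d of Dex. Under TNF it gave 12.47, 12.14 and 12.25 at 2 h, 12.01, 12.17 and 11.01 at 24 h and 11.90, 10.44 and 11.92 at 6 d of TNF. All arrays of Dex 6 d, TNF 24 h and TNF 6 d lay below control, and TNF 24 h replicate 3 and TNF 6 d replicate 2, both among the arrays with a raised 3' minus 5' difference, were the lowest. Its change was -1.06 ± 0.32 (adjusted p = 0.032) at TNF 6 d with all arrays, and that call was lost without control replicate 1 (0.0921), control replicate 2 (0.0884), control replicate 3 (0.062) or TNF 6 d replicate 2 (0.0738). It was -0.57 ± 0.22 (adjusted p = 0.0738) without TNF 6 d replicate 2, where the falls at Dex 6 d, -0.78 ± 0.20 (adjusted p = 0.00562), and at TNF 24 h, -0.75 ± 0.20 (adjusted p = 0.00747), were called in its place. Without all 4 arrays of raised difference the changes were -0.68 ± 0.11 (adjusted p = 9.34e-05) at Dex 6 d, -0.39 ± 0.11 (adjusted p = 0.00935) at TNF 24 h and -0.57 ± 0.11 (adjusted p = 0.000482) at TNF 6 d.

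Slc25a11, the oxoglutarate carrier of the malate-aspartate shuttle, read 10.80, 10.76 and 10.76 in control, 10.70, 10.56 and 10.78 at 2 h, 10.65, 10.62 and 10.67 at 24 h and 10.53, 9.83 and 10.61 at 6 d of Dex. In TNF cells it read 10.69, 9.99 and 10.65 at 2 h, 10.28, 10.36 and 9.17 at 24 h and 10.49, 8.12 and 10.60 at 6 d of TNF. The 4 lowest arrays, at 8.12 to 9.99, were the 4 whose 3' minus 5' difference over Actb and Gapdh was 0.68 or more, and the part of that difference was not tested. With all arrays Slc25a11 was called against control in none of the 6 comparisons. The change at TNF 24 h, -0.84 ± 0.24 (adjusted p = 0.0147), was called without TNF 6 d replicate 2. Without all 4 arrays it was -0.45 ± 0.07 (adjusted p = 0.000118), and the changes at TNF 6 d, -0.23 ± 0.07 (adjusted p = 0.0202), and Dex 6 d, -0.21 ± 0.07 (adjusted p = 0.0371), were called too.

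Among the uncoupling proteins, Ucp3 fell at every TNF time and Ucp1 was too dim to test. Ucp3, an uncoupling protein known mainly from muscle and brown fat, read 7.62, 7.89 and 8.03 in control, 7.53, 7.46 and 7.47 at 2 h, 7.97, 7.88 and 7.89 at 24 h and 7.83, 7.97 and 7.87 at 6 d of Dex. It read 6.29, 6.36 and 6.75 at 2 h, 7.14, 7.28 and 7.34 at 24 h and 7.33, 6.85 and 7.34 at 6 d of TNF. Every TNF array lay below every control array, and the 3 arrays of TNF 2 h were the lowest. The change was -1.38 ± 0.16 (adjusted p = 9.41e-06) at 2 h, which is 2.6-fold lower. It was -0.59 ± 0.16 (adjusted p = 0.0214) at 24 h and -0.67 ± 0.16 (adjusted p = 0.00831) at 6 d. The calls at 2 h and 6 d held whichever array was left out, while that at 24 h was lost without control replicate 2 (0.0796), control replicate 3 (0.108) or TNF 24 h replicate 1 (0.101). Its second probe set gave -0.82, -0.69 and -0.32 at the same times. Under Dex no change of Ucp3 was called, and its values at 2 h, although below all control arrays, gave -0.36 ± 0.16 (adjusted p = 0.517).

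Ucp1, the brown-fat uncoupler, stayed between 3.61 and 4.06 on every array but TNF 6 d replicate 2, where it read 5.13, and never passed the level of 5.34. Slc25a30, a carrier related to the uncoupling proteins, turned its sign with TNF 6 d replicate 2: its values there were 8.42, 5.69 and 8.35, against 7.31, 7.39 and 7.92 in control. The change was -0.05 ± 0.49 (adjusted p = 0.944) with all arrays and 0.84 ± 0.26 (adjusted p = 0.0256) without that array. A second probe set of Slc25a30 gave 1.03 with all arrays and 0.78 without it. Slc25a14, another relative, changed by -0.28 ± 0.09 (adjusted p = 0.0348) at Dex 6 d, called only without that array. The remaining relative, Slc25a27, was too dim to test.

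**Figure D2:**
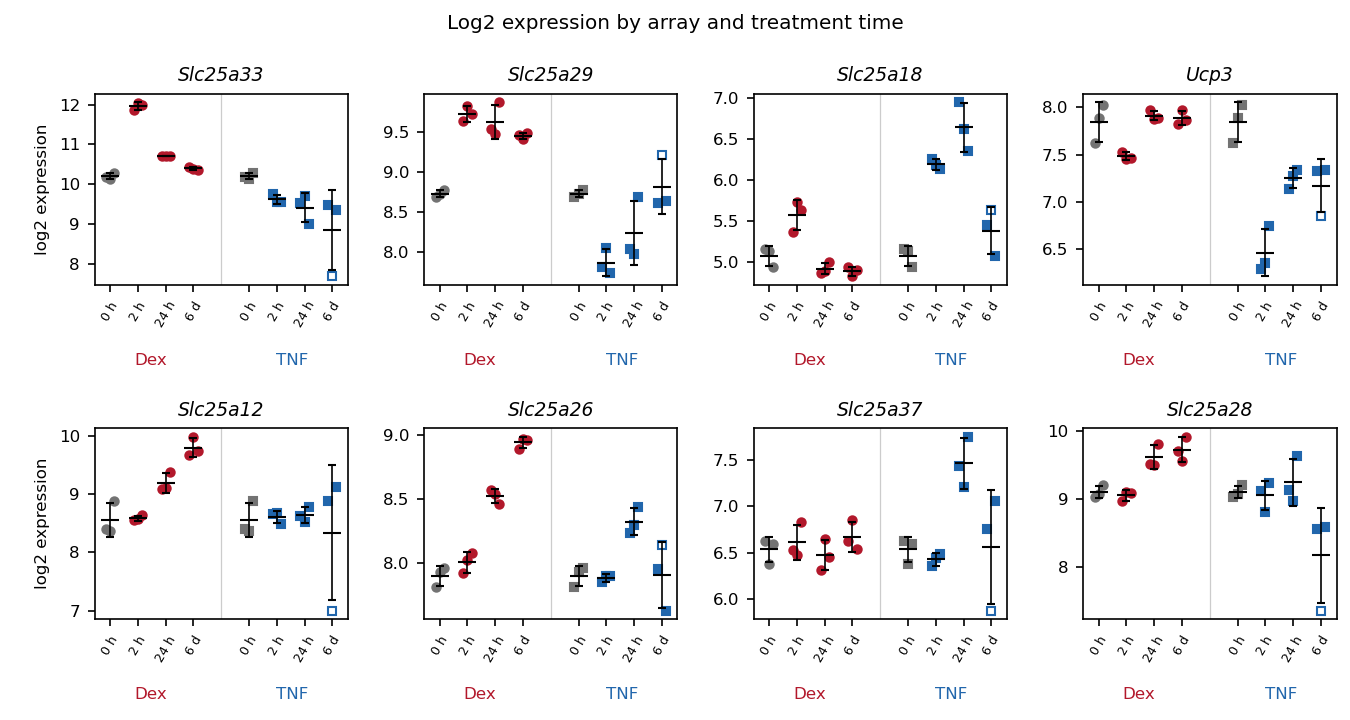
Log2 expression (vertical axis) of 8 carriers on every array, by time under Dex (left, red circles) and TNF (right, blue squares), with the same control arrays in grey at 0 h on both sides. Bars are mean ± SD of 3 arrays and the open square is TNF 6 d replicate 2. Slc25a33 peaks at Dex 2 h, Slc25a18 and Slc25a37 are high at TNF 24 h, and Slc25a12 and Slc25a26 are highest at Dex 6 d.

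Of the nucleotide and phosphate carriers, Slc25a33 gave the largest early change of the family. Slc25a33 carries pyrimidine nucleotides into the matrix. It read 10.19, 10.13 and 10.29 in control, 11.87, 12.05 and 11.98 at 2 h, 10.70, 10.71 and 10.70 at 24 h and 10.44, 10.39 and 10.35 at 6 d of Dex. Under TNF it read 9.74, 9.56 and 9.55 at 2 h, 9.52, 9.71 and 9.0 at 24 h and 9.48, 7.69 and 9.36 at 6 d of TNF. All arrays of all Dex groups lay above control and all TNF arrays below it. The rise at Dex 2 h was 1.77 ± 0.32 (adjusted p = 0.00234), a 3.4-fold higher level, and no single array decided the call. It was 0.50 at 24 h, called only without TNF 6 d replicate 2 (adjusted p = 0.0125), and 0.19 at 6 d, not called in either fit. TNF changed it by -1.36 ± 0.32 (adjusted p = 0.00781) at 6 d with all arrays and by -0.78 ± 0.15 (adjusted p = 0.000522) without replicate 2. The TNF changes at 2 h and 24 h, -0.59 and -0.79, were called only in the fit without that array (adjusted p = 0.00384 and 9.71e-05). Slc25a36, the other pyrimidine nucleotide carrier, was called in none of the comparisons against control, with changes between -0.17 and 0.25.

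The phosphate carrier Slc25a3 supplies phosphate for ATP synthesis. It read 13.34, 13.28 and 13.42 in control, 13.28, 13.28 and 13.34 at 2 h, 13.41, 13.38 and 13.54 at 24 h and 13.36, 13.39 and 13.41 at 6 d of Dex. The TNF arrays read 13.34, 13.32 and 13.25 at 2 h, 12.94, 12.86 and 12.53 at 24 h and 13.08, 12.47 and 13.15 at 6 d of TNF. Its TNF 24 h and 6 d arrays all lay below control, while the Dex arrays overlapped it. The fall at TNF 24 h was -0.58 ± 0.14 (adjusted p = 0.0142), and was lost without control replicate 3 (0.0628) or TNF 24 h replicate 3 (0.0983). At TNF 6 d the change was -0.45 ± 0.14 (adjusted p = 0.0437) with all arrays, lost without any of 17 of the 21 arrays, at adjusted p from 0.0517 to 0.126, the highest without control replicate 3, and -0.23 without replicate 2.

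The ADP/ATP carriers Slc25a4 and Slc25a5, which exchange cytosolic ADP for matrix ATP, moved little. Slc25a4 read 13.38, 13.35 and 13.34 in control, 13.33, 13.31 and 13.39 at 2 h, 13.40, 13.44 and 13.38 at 24 h and 13.38, 13.17 and 13.42 at 6 d of Dex, and under TNF 13.42, 13.26 and 13.32 at 2 h, 13.24, 13.23 and 12.99 at 24 h and 13.40, 12.42 and 13.38 at 6 d of TNF. Slc25a5 read 14.07, 14.05 and 14.02 in control, 14.01, 14.01 and 14.03 at 2 h, 14.05, 14.03 and 14.08 at 24 h and 14.08, 14.10 and 14.06 at 6 d of Dex, and under TNF 14.04, 14.0 and 14.02 at 2 h, 13.97, 13.98 and 13.39 at 24 h and 13.94, 12.88 and 13.91 at 6 d of TNF. The lowest arrays of both carriers were TNF 6 d replicate 2 and TNF 24 h replicate 3, both with a raised 3' minus 5' difference, and the TNF 24 h arrays all lay below control. Neither was called against control with all arrays or without TNF 6 d replicate 2. Without all 4 arrays of raised difference, calls were made for Slc25a4 at TNF 24 h, -0.13 ± 0.05 (adjusted p = 0.0464), and for Slc25a5 at TNF 6 d, -0.12 ± 0.04 (adjusted p = 0.0195). The widest changes, at TNF 6 d, were -0.30 ± 0.18 (adjusted p = 0.232) for Slc25a4 and -0.47 ± 0.20 (adjusted p = 0.106) for Slc25a5, and without replicate 2 they were 0.03 and -0.12. Among the 8 single-gene probe sets of Slc25a5, 2 of lower signal gave differences of group means of 0.55 and 0.65 at Dex 6 d. The one used gave 0.03, and the others were not tested on their own.

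Slc25a24 and Slc25a25, calcium-regulated carriers that exchange ATP-Mg for phosphate, went opposite ways at TNF 24 h and 6 d when TNF 6 d replicate 2 was left out. Slc25a24 read 9.84, 9.90 and 10.32 in control, 9.83, 9.89 and 9.93 at 2 h, 9.75, 9.74 and 10.0 at 24 h and 10.05, 10.45 and 10.10 at 6 d of Dex. With TNF it read 9.69, 10.09 and 9.89 at 2 h, 10.67, 10.72 and 10.85 at 24 h and 11.06, 9.16 and 11.06 at 6 d of TNF. All TNF 24 h arrays and 2 of 3 TNF 6 d arrays lay above control, and TNF 6 d replicate 2 below it. With all arrays Slc25a24 was called in none of the comparisons against control. Without that array it rose by 0.72 ± 0.14 (adjusted p = 0.000424) at 24 h and 1.04 ± 0.15 (adjusted p = 4.57e-05) at 6 d. A dimmer probe set of Slc25a24 gave -0.14 at 24 h and 0.97 at 6 d without replicate 2, so the 2 probe sets disagreed at 24 h.

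Slc25a25 read 7.28, 7.38 and 7.85 in control, 7.04, 7.08 and 7.01 at 2 h, 6.78, 7.04 and 7.03 at 24 h and 7.11, 7.02 and 6.80 at 6 d of Dex. Its TNF values were 7.48, 7.52 and 7.28 at 2 h, 6.79, 7.0 and 6.68 at 24 h and 6.85, 7.77 and 6.92 at 6 d of TNF. TNF 24 h and all Dex arrays lay below control, and TNF 6 d replicate 2 lay above its fellow replicates. The change at TNF 24 h was -0.68 ± 0.20 (adjusted p = 0.0462), lost without any of 17 of the 21 arrays, at adjusted p from 0.0529 to 0.234, the highest without control replicate 3. Without TNF 6 d replicate 2 it fell by 0.62 ± 0.16 (adjusted p = 0.00692) at TNF 6 d, by 0.55 ± 0.14 (adjusted p = 0.00972) at Dex 24 h and by 0.53 ± 0.14 (adjusted p = 0.00814) at Dex 6 d. Another of its probe sets, not tested on its own, gave differences of group means of at most 0.31 in size in these comparisons. Of the same group of carriers, Slc25a23 and Slc25a41 were too dim to test.

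**Figure D3:**
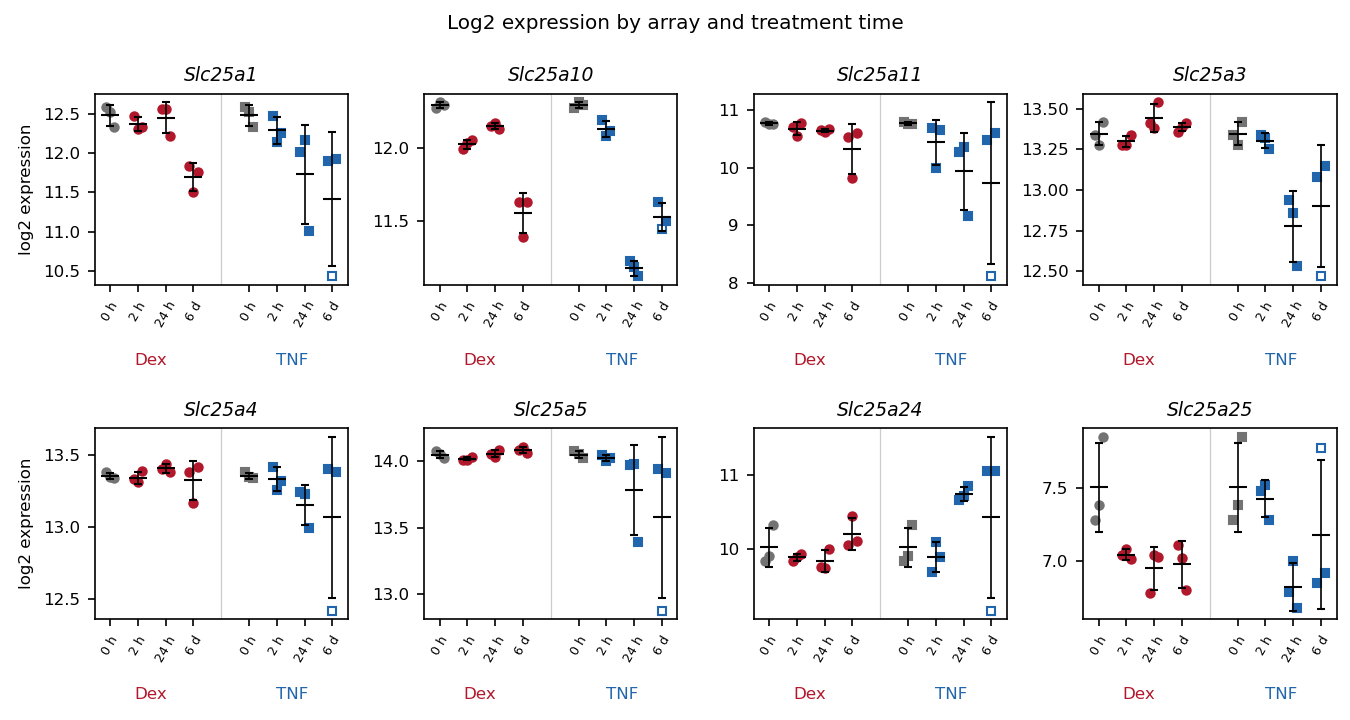
Log2 expression (vertical axis) of the di- and tricarboxylate carriers, the phosphate and ADP/ATP carriers and 2 ATP-Mg carriers on every array, by time under Dex (left, red circles) and TNF (right, blue squares), with control in grey at 0 h. Bars are mean ± SD of 3 arrays and the open square is TNF 6 d replicate 2. Slc25a10 is low at Dex 6 d, TNF 24 h and TNF 6 d with little spread, while Slc25a4 and Slc25a5 stay level except for single low TNF arrays.

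Of 8 tested amino acid carriers, with all arrays, 1 rose at Dex 2 h, 1 at Dex 24 h and 2 at Dex 6 d. The shares of all genes called higher there were 1.66%, 2.06% and 3.22%. Under TNF 1 rose and 1 fell at 2 h, beside 2.95% and 0.872% of genes. At TNF 24 h 1 rose, beside 5.41%, and at 6 d 2 fell, beside 10.7%. The rises at Dex 2 h and 24 h were both of Slc25a29, and those at TNF 2 h and 24 h both of Slc25a18. Without TNF 6 d replicate 2, Dex raised 2 and lowered 1 of the 8 at 2 h (background 4.32% and 2.84%). Dex raised 2 at 24 h (6.5%), and raised 3 and lowered 1 at 6 d (10.5% and 13.7%). TNF then raised 1 and lowered 1 at 2 h (6.67% and 4.13%) and at 24 h (13.3% and 12.5%). At TNF 6 d 1 rose and 0 fell in that fit (10.6% and 10.0%). Slc25a29 carries arginine, lysine and other basic amino acids, as shown with the human protein. It read 8.69, 8.72 and 8.77 in control, 9.63, 9.82 and 9.72 at 2 h, 9.53, 9.47 and 9.87 at 24 h and 9.46, 9.41 and 9.48 at 6 d of Dex. The TNF values were 7.81, 8.05 and 7.73 at 2 h, 8.04, 7.97 and 8.69 at 24 h and 8.61, 9.21 and 8.63 at 6 d of TNF. Every Dex array was above every control array, every TNF 2 h and TNF 24 h array was below (TNF 24 h replicate 3 and control replicate 1 differ only past the second decimal), and 2 of 3 arrays of TNF 6 d lay below control. Slc25a29 rose by 1.0 ± 0.20 (adjusted p = 0.00628) at Dex 2 h, by 0.90 ± 0.20 (adjusted p = 0.0118) at 24 h and by 0.72 ± 0.20 (adjusted p = 0.0286) at 6 d. It was the only carrier called at all 3 Dex times with all arrays. TNF for 2 h changed it by -0.86 ± 0.20 (adjusted p = 0.0148). All 5 probe sets of the gene moved in these directions at those 4 groups, by 0.25 to 1.07 under Dex and by -0.41 to -0.88 at TNF 2 h. The Dex 2 h call held without any 1 array. That at 24 h was lost without control replicate 1 (0.0543), control replicate 2 (0.0505) or Dex 24 h replicate 3 (0.0799), that at 6 d without control replicate 1 (0.0969), control replicate 2 (0.0889), control replicate 3 (0.0654), Dex 6 d replicate 1 (0.09), Dex 6 d replicate 2 (0.0696) or Dex 6 d replicate 3 (0.0913), and that at TNF 2 h without control replicate 2 (0.0584), control replicate 3 (0.0586), TNF 2 h replicate 1 (0.0676) or TNF 2 h replicate 3 (0.0876). Without TNF 6 d replicate 2 all 4 calls stood, and the change at TNF 24 h, -0.49 ± 0.15 (adjusted p = 0.0204), joined them.

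Slc25a18 and Slc25a22 are the glutamate carriers. Slc25a18 read 5.16, 5.13 and 4.94 in control, 5.37, 5.73 and 5.63 at 2 h, 4.87, 4.89 and 5.0 at 24 h and 4.94, 4.83 and 4.90 at 6 d of Dex. With TNF its arrays gave 6.26, 6.19 and 6.13 at 2 h, 6.95, 6.62 and 6.36 at 24 h and 5.45, 5.63 and 5.07 at 6 d of TNF. All control arrays were under the brightness level of 5.34, and all arrays of TNF 2 h and 24 h were above it. It was tested only because treated arrays passed that level, so no fold against control is given. Slc25a18 rose by 1.11 ± 0.15 (adjusted p = 8.41e-05) at TNF 2 h and by 1.56 ± 0.15 (adjusted p = 9.86e-07) at 24 h, and both calls held without any 1 array. At TNF 6 d its change was 0.31 ± 0.15 (adjusted p = 0.155), and 1 of the 3 arrays lay inside the control range. The rise at Dex 2 h, 0.50 ± 0.14 (adjusted p = 0.0292), was called only without TNF 6 d replicate 2.

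Slc25a22 read 8.87, 8.99 and 8.81 in control, 8.43, 8.44 and 8.35 at 2 h, 8.95, 9.03 and 8.80 at 24 h and 9.19, 9.23 and 9.16 at 6 d of Dex. Under TNF it gave 8.67, 8.60 and 8.53 at 2 h, 8.60, 8.37 and 8.82 at 24 h and 8.50, 7.0 and 8.60 at 6 d of TNF. All arrays of Dex 2 h, TNF 2 h and TNF 6 d lay below control and all of Dex 6 d above it, with TNF 6 d replicate 2 far the lowest. The fall at TNF 6 d, -0.86 ± 0.28 (adjusted p = 0.0476), was lost without any of 19 of the 21 arrays, at adjusted p from 0.0502 to 0.126, the highest without control replicate 2, and was -0.34 without replicate 2. At Dex 2 h it fell by 0.48 ± 0.11 (adjusted p = 0.0071), called only without that array.

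The aspartate-glutamate carriers Slc25a12 (aralar) and Slc25a13 (citrin), which drive the malate-aspartate shuttle, went different ways under Dex. Slc25a12 read 8.41, 8.36 and 8.89 in control, 8.55, 8.57 and 8.64 at 2 h, 9.09, 9.11 and 9.39 at 24 h and 9.68, 9.99 and 9.74 at 6 d of Dex. The TNF arrays gave 8.66, 8.68 and 8.49 at 2 h, 8.63, 8.52 and 8.78 at 24 h and 8.89, 7.0 and 9.13 at 6 d of TNF. Dex 24 h and 6 d lay above control in every array, and TNF 6 d replicate 2 was by far the lowest array. Slc25a12 rose by 1.25 ± 0.36 (adjusted p = 0.0341) at Dex 6 d, a 2.38-fold higher level. That call was lost without control replicate 1 (0.123), control replicate 2 (0.138), Dex 6 d replicate 1 (0.0775), Dex 6 d replicate 2 (0.127) or Dex 6 d replicate 3 (0.0836), and without TNF 6 d replicate 2 it stood at an adjusted p of 8.67e-07. In that fit the change at Dex 24 h, 0.64 ± 0.14 (adjusted p = 0.00272), was called too. At TNF 6 d the sign turned, with -0.21 ± 0.36 (adjusted p = 0.677) on all arrays and 0.46 ± 0.15 (adjusted p = 0.041) without replicate 2. A dimmer probe set of Slc25a12 gave 0.32 at Dex 6 d.

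Slc25a13 read 6.25, 6.46 and 6.35 at Dex 6 d, against 6.84, 6.73 and 7.04 in control. All Dex 6 d arrays lay below control, and the change, -0.52 ± 0.13 (adjusted p = 0.00432), was called only without TNF 6 d replicate 2. The difference between the changes of Slc25a12 and Slc25a13 was not tested.

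The other amino acid carriers moved less. Slc25a15, which exchanges ornithine for citrulline, read 9.69, 9.57 and 9.79 in control, 10.15, 10.19 and 9.88 at 2 h, 9.78, 9.83 and 9.81 at 24 h and 9.57, 9.93 and 9.34 at 6 d of Dex, and under TNF 9.32, 9.93 and 9.25 at 2 h, 9.37, 9.39 and 9.43 at 24 h and 9.27, 8.57 and 9.21 at 6 d of TNF. Its TNF 24 h and 6 d arrays all lay below control. The fall at TNF 6 d, -0.67 ± 0.21 (adjusted p = 0.0425), was lost without any of 14 of the 21 arrays, at adjusted p from 0.0504 to 0.122, the highest without control replicate 3, and without replicate 2 the change was -0.44 ± 0.18 (adjusted p = 0.0853). Slc25a44, a carrier of branched-chain amino acids known from brown fat, read 9.50, 9.51 and 9.54 at Dex 6 d, against 9.24, 9.32 and 8.55 in control, where replicate 3 was low. Its change at Dex 6 d, 0.48 ± 0.17 (adjusted p = 0.0431), was called only without TNF 6 d replicate 2. Slc25a38, a glycine carrier needed for heme synthesis, was called against control in neither fit.

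Slc25a20, which brings acylcarnitines into the matrix for fatty acid oxidation, fell late under TNF. It read 10.48, 10.49 and 10.34 in control, 10.39, 10.56 and 10.15 at 2 h, 9.94, 9.87 and 10.15 at 24 h and 10.04, 10.16 and 10.19 at 6 d of Dex. Under TNF it read 10.18, 10.70 and 10.13 at 2 h, 9.66, 9.85 and 10.31 at 24 h and 9.82, 9.52 and 9.75 at 6 d of TNF. All arrays of Dex 24 h and 6 d and of TNF 24 h and 6 d lay below control, and at TNF 6 d replicate 2 was close to the other replicates. The change at TNF 6 d was -0.74 ± 0.19 (adjusted p = 0.0146) with all arrays and -0.65 ± 0.18 (adjusted p = 0.0121) without replicate 2, and the call was lost without control replicate 1 (0.052) or control replicate 2 (0.0559). At TNF 24 h the fall of 0.49 ± 0.16 (adjusted p = 0.0262) was called only without TNF 6 d replicate 2. A second probe set of Slc25a20 gave -0.70 at 24 h and -0.69 at 6 d without that replicate.

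Among cofactor carriers, Slc25a26 rose under Dex and several others fell at TNF 6 d. Slc25a26 brings S-adenosylmethionine, the methyl donor, into the matrix. It read 7.81, 7.93 and 7.96 in control, 7.92, 8.02 and 8.08 at 2 h, 8.57, 8.54 and 8.46 at 24 h and 8.89, 8.97 and 8.96 at 6 d of Dex. In TNF cells it read 7.85, 7.90 and 7.90 at 2 h, 8.23, 8.30 and 8.44 at 24 h and 7.95, 8.14 and 7.63 at 6 d of TNF. The Dex 24 h arrays lay above all control arrays and the Dex 6 d arrays higher still. Slc25a26 rose by 0.62 ± 0.14 (adjusted p = 0.0109) at Dex 24 h, a call lost without control replicate 1 (0.0645), Dex 24 h replicate 1 (0.0598) or Dex 24 h replicate 2 (0.0521). At Dex 6 d it rose by 1.04 ± 0.14 (adjusted p = 4.09e-05), a 2.06-fold higher level, a call that held without any 1 array. A dimmer probe set gave 0.88 and 0.81 at these times. At TNF 24 h the change of 0.42 ± 0.10 (adjusted p = 0.00408) was called only without TNF 6 d replicate 2, and the dimmer probe set gave -0.21, the opposite sign.

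Slc25a32, which carries folate and is also described as an FAD carrier, read 6.99, 6.81 and 7.61 in control, 7.88, 8.25 and 7.99 at 2 h, 7.54, 7.65 and 7.56 at 24 h and 7.70, 7.95 and 7.49 at 6 d of Dex. Its TNF arrays read 6.97, 7.49 and 7.06 at 2 h, 7.13, 7.08 and 7.28 at 24 h and 6.99, 5.63 and 6.73 at 6 d of TNF. Dex 2 h was the highest group, with every array above control. The changes at Dex 2 h, 0.90 ± 0.18 (adjusted p = 0.00208), and at Dex 6 d, 0.57 ± 0.18 (adjusted p = 0.0239), were called only without TNF 6 d replicate 2, and control replicate 3 lay far above the other control arrays. A second probe set gave 1.18 and 0.83.

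Slc25a16, linked to coenzyme A in the matrix, read 10.06, 10.0 and 10.13 in control, 10.03, 10.25 and 10.08 at 2 h, 10.15, 10.23 and 9.99 at 24 h and 10.13, 10.53 and 10.0 at 6 d of Dex, and with TNF 9.86, 10.45 and 9.89 at 2 h, 9.85, 10.01 and 9.40 at 24 h and 9.67, 7.43 and 9.50 at 6 d of TNF. The single value of TNF 6 d replicate 2 lay far below all others. The change at TNF 6 d, -1.19 ± 0.39 (adjusted p = 0.047), was lost without any of 19 of the 21 arrays, at adjusted p from 0.0502 to 0.118, the highest without control replicate 3, and was -0.48 without replicate 2. Slc25a40, a glutathione carrier, read 8.31, 8.58 and 8.67 in control, 8.49, 8.62 and 8.45 at 2 h, 8.60, 8.67 and 8.69 at 24 h and 8.42, 8.92 and 8.34 at 6 d of Dex, and with TNF 8.08, 8.57 and 8.20 at 2 h, 7.98, 7.97 and 8.37 at 24 h and 8.0, 7.12 and 8.10 at 6 d of TNF. Its 3 TNF 6 d arrays lay below control. The change there, -0.78 ± 0.23 (adjusted p = 0.031), was lost without control replicate 2 (0.0921), control replicate 3 (0.106) or TNF 6 d replicate 2 (0.0676), and without replicate 2 it was -0.47 ± 0.18 (adjusted p = 0.0676).

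Slc25a17 belongs to the family by sequence but sits in the peroxisome, where it carries coenzyme A, FAD and NAD. It read 10.22, 10.18 and 10.09 in control, 10.44, 10.50 and 10.21 at 2 h, 10.09, 10.14 and 10.09 at 24 h and 9.84, 10.01 and 10.06 at 6 d of Dex. Under TNF the arrays gave 10.42, 10.39 and 10.28 at 2 h, 9.70, 9.57 and 9.93 at 24 h and 9.83, 9.36 and 9.74 at 6 d of TNF. The TNF 2 h arrays lay above control and those of 24 h and 6 d below it. The change at TNF 6 d was -0.52 ± 0.15 (adjusted p = 0.0317), lost without control replicate 1 (0.096), control replicate 2 (0.0893) or control replicate 3 (0.058), and it was -0.38 ± 0.12 (adjusted p = 0.0291) without replicate 2. In that fit the change at TNF 24 h, -0.43 ± 0.11 (adjusted p = 0.00506), was called too. Slc25a39 (glutathione), Slc25a42 (coenzyme A) and Slc25a51 (NAD) were called against control in neither fit. The last of these had a change of -1.14 at TNF 6 d with all arrays and -0.24 without replicate 2.

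The mitoferrins, which import iron for heme and iron-sulfur clusters, moved separately. Slc25a37 (mitoferrin 1) read 6.63, 6.38 and 6.60 in control, 6.53, 6.48 and 6.83 at 2 h, 6.32, 6.65 and 6.46 at 24 h and 6.63, 6.85 and 6.54 at 6 d of Dex. Under TNF it read 6.36, 6.44 and 6.49 at 2 h, 7.43, 7.21 and 7.75 at 24 h and 6.76, 5.88 and 7.06 at 6 d of TNF. Only the TNF 24 h arrays all lay above control. The rise there was 0.93 ± 0.22 (adjusted p = 0.0109), lost without control replicate 2 (0.0568) or TNF 24 h replicate 3 (0.0742). Slc25a28 (mitoferrin 2) read 9.03, 9.07 and 9.20 in control, 8.96, 9.10 and 9.09 at 2 h, 9.51, 9.50 and 9.81 at 24 h and 9.70, 9.55 and 9.91 at 6 d of Dex. With TNF it read 9.11, 8.81 and 9.23 at 2 h, 9.13, 8.97 and 9.63 at 24 h and 8.56, 7.36 and 8.59 at 6 d of TNF. Its Dex 24 h and 6 d arrays lay above control and its TNF 6 d arrays below. The fall at TNF 6 d was -0.93 ± 0.26 (adjusted p = 0.0232) with all arrays and -0.53 ± 0.17 (adjusted p = 0.0326) without replicate 2, and was lost without control replicate 1 (0.0552), control replicate 2 (0.063) or control replicate 3 (0.0781). The rises at Dex 24 h, 0.50 ± 0.15 (adjusted p = 0.0331), and Dex 6 d, 0.62 ± 0.15 (adjusted p = 0.00467), were called only without that replicate.

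Of the carriers grouped here without an assigned substrate, Slc25a34 had the largest fall of the family at TNF 6 d. It read 8.19, 8.83 and 7.43 in control, 9.16, 8.55 and 7.69 at 2 h, 8.72, 8.86 and 7.79 at 24 h and 8.06, 8.05 and 7.40 at 6 d of Dex. For TNF the values were 7.29, 8.85 and 7.19 at 2 h, 7.19, 7.98 and 7.03 at 24 h and 6.52, 6.63 and 6.53 at 6 d of TNF. Its 3 TNF 6 d arrays were within 0.11 of each other and below all control arrays, which themselves ran from 7.43 to 8.83. The change was -1.59 ± 0.46 (adjusted p = 0.0261), a 3.01-fold lower level, and -1.63 ± 0.48 (adjusted p = 0.0202) without replicate 2, and was lost without control replicate 1 (0.0723) or control replicate 2 (0.122). Slc25a45 read 8.39, 8.22 and 8.31 in control, 8.03, 8.04 and 8.13 at 2 h, 8.12, 8.20 and 8.10 at 24 h and 7.69, 7.90 and 7.73 at 6 d of Dex. It gave 7.97, 8.06 and 7.82 at 2 h, 7.85, 8.08 and 8.24 at 24 h and 8.06, 7.51 and 8.16 at 6 d of TNF. All treated arrays except TNF 24 h replicate 3 lay below the lowest control array. The fall at Dex 6 d, -0.53 ± 0.16 (adjusted p = 0.0475), was lost without any of 17 of the 21 arrays, at adjusted p from 0.0501 to 0.173, the highest without Dex 6 d replicate 1. That at TNF 2 h, -0.36 ± 0.11 (adjusted p = 0.0429), was called only without TNF 6 d replicate 2. Slc25a35 changed by -0.50 ± 0.13 (adjusted p = 0.00809) at Dex 6 d, called only without TNF 6 d replicate 2. Slc25a47, Slc25a48 and Slc25a53, and the outer-membrane protein Slc25a46, were called against control in neither fit.

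Where Dex was set against TNF at the same time, most of the called carriers were higher in Dex cells. At 2 h, 3 carriers were higher (7.69%) and 1 lower (2.56%) under Dex than under TNF, beside 2.36% and 3.61% of all genes. At 24 h these were 5 (12.8%) and 2 (5.13%), beside 5.89% and 7.56%. At 6 d they were 15 (38.5%) and 2 (5.13%), beside 15.9% and 7.81%. The median Dex minus TNF difference of the carriers was 0.02, 0.33 and 0.55 at the 3 times, against 0.03, 0.01 and 0.20 over all genes. Without TNF 6 d replicate 2, 6, 20 and 17 carriers differed (15.4%, 51.3% and 43.6%), beside 14.9%, 33.2% and 30.3% of genes. At 2 h the share of carriers was thus near that of all genes. At 6 d, 14 carriers were called in both fits. Slc25a15, Slc25a18 and Slc25a46 were called there only with all arrays, and Slc25a24, Slc25a45 and Slc25a51 only without that array. The sign of 8 carriers turned at 6 d. In the fit of only Dex 6 d and TNF 6 d, with all arrays, limma called 0 carriers and 10 had an unadjusted p below 0.05. Here too the share of all genes is not given, and the counts are not read as particular to the carriers.

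At 2 h the carriers higher in Dex were Slc25a33, by 2.35 ± 0.32 (adjusted p = 4.07e-05), Slc25a29, by 1.86 ± 0.20 (adjusted p = 2.71e-06), and Ucp3, by 1.02 ± 0.16 (adjusted p = 0.000204). Slc25a18 was lower in Dex, with a difference of -0.61 ± 0.15 (adjusted p = 0.0166) that was lost without Dex 2 h replicate 1 (0.123), TNF 2 h replicate 1 (0.0765) or TNF 2 h replicate 2 (0.0509). At 24 h Slc25a29, Slc25a33, Slc25a10, Slc25a3 and Ucp3 were higher in Dex cells, by 1.39, 1.29, 0.98, 0.67 and 0.66. Of these calls, that of Slc25a33 was lost without TNF 24 h replicate 3 (0.0566). Slc25a18 and Slc25a37 were lower in Dex cells at 24 h, with differences of -1.72 ± 0.15 (adjusted p = 1.37e-07) and -0.99 ± 0.22 (adjusted p = 0.00453). Slc25a18 was tested only because treated arrays passed the brightness level, and all its Dex 24 h arrays lay below that level. With the replicate number as a block, which the 24 h arrays allowed, 8 carriers differed in place of 7, the added one being Slc25a34.

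At 6 d, Slc25a33 and Slc25a28 each differed by 1.55 with all arrays, and by 0.97 and 1.15 without TNF 6 d replicate 2 (adjusted p = 2.66e-05 and 2.43e-05). Slc25a12 differed by 1.46 ± 0.36 (adjusted p = 0.00672) with all arrays and 0.79 ± 0.15 (adjusted p = 0.000508) without TNF 6 d replicate 2, and Slc25a26 by 1.03 ± 0.14 (adjusted p = 3.08e-05). Slc25a13 was lower in Dex cells, with a difference of -0.86 ± 0.24 (adjusted p = 0.0147), lost without Dex 6 d replicate 1 (0.0552), and of -0.45 ± 0.14 (adjusted p = 0.0202) without TNF 6 d replicate 2. Slc25a24 differed by -0.23 ± 0.34 (adjusted p = 0.624) with all arrays and by -0.86 ± 0.15 (adjusted p = 0.000181) without that array. Slc25a10, which fell under both agents, did not pass the test between them at 6 d, with a difference of 0.03 ± 0.11 (adjusted p = 0.866). The sign of that difference turned without TNF 6 d replicate 2.

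Between neighbouring times, 3 carriers changed from 2 h to 24 h of Dex (3.62% of all genes), 1 from 24 h to 6 d of Dex (0.683%), 5 from 2 h to 24 h of TNF (5.69%) and 3 from 24 h to 6 d of TNF (5.99%). Without TNF 6 d replicate 2 the counts were 8, 4, 10 and 6, and included every call made with all arrays. The sign of 13 carriers turned from 24 h to 6 d of TNF. The share of all genes in that fit is not given for these comparisons. Values below are from all arrays. Slc25a33 was lower at 24 h than at 2 h of Dex, with a difference of -1.27 ± 0.32 (adjusted p = 0.0286), a call lost without Dex 2 h replicate 1 (0.0819), Dex 2 h replicate 2 (0.109), Dex 2 h replicate 3 (0.0967), Dex 24 h replicate 1 (0.0998), Dex 24 h replicate 2 (0.0937) or Dex 24 h replicate 3 (0.0933). Ucp3 was higher at 24 h than at 2 h of TNF, by 0.79 ± 0.16 (adjusted p = 0.00385). Slc25a37 rose by 1.03 ± 0.22 (adjusted p = 0.0072) over the same span. It was lower at 6 d than at 24 h of TNF, with a difference of -0.89 ± 0.22 (adjusted p = 0.0239), lost without TNF 24 h replicate 1 (0.0631) or TNF 24 h replicate 3 (0.122). Slc25a18 was also lower at 6 d than at 24 h of TNF, with a difference of -1.26 ± 0.15 (adjusted p = 5.84e-05). This carrier was tested only because treated arrays, those of TNF 24 h among them, passed the brightness level.

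How far the 6 d TNF result depends on 1 array differed between carriers. Slc25a34, Slc25a10, Slc25a20, Slc25a17, Ucp3, Slc25a28 and Slc25a33 changed by at least 0.38 in the same direction and were called with and without replicate 2. For all of these except Slc25a34, the fall was smaller without replicate 2. Slc25a1, Slc25a3, Slc25a15, Slc25a16, Slc25a22 and Slc25a40 were called only with it, and Slc25a12, Slc25a24, Slc25a25 and Slc25a30 only without it. The sign of 7 carriers turned: Slc25a4, Slc25a12, Slc25a13, Slc25a26, Slc25a29, Slc25a30 and Slc25a47. Of the 7, only Slc25a12 and Slc25a30 were called in either fit, both without the array.

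**Figure D4:**
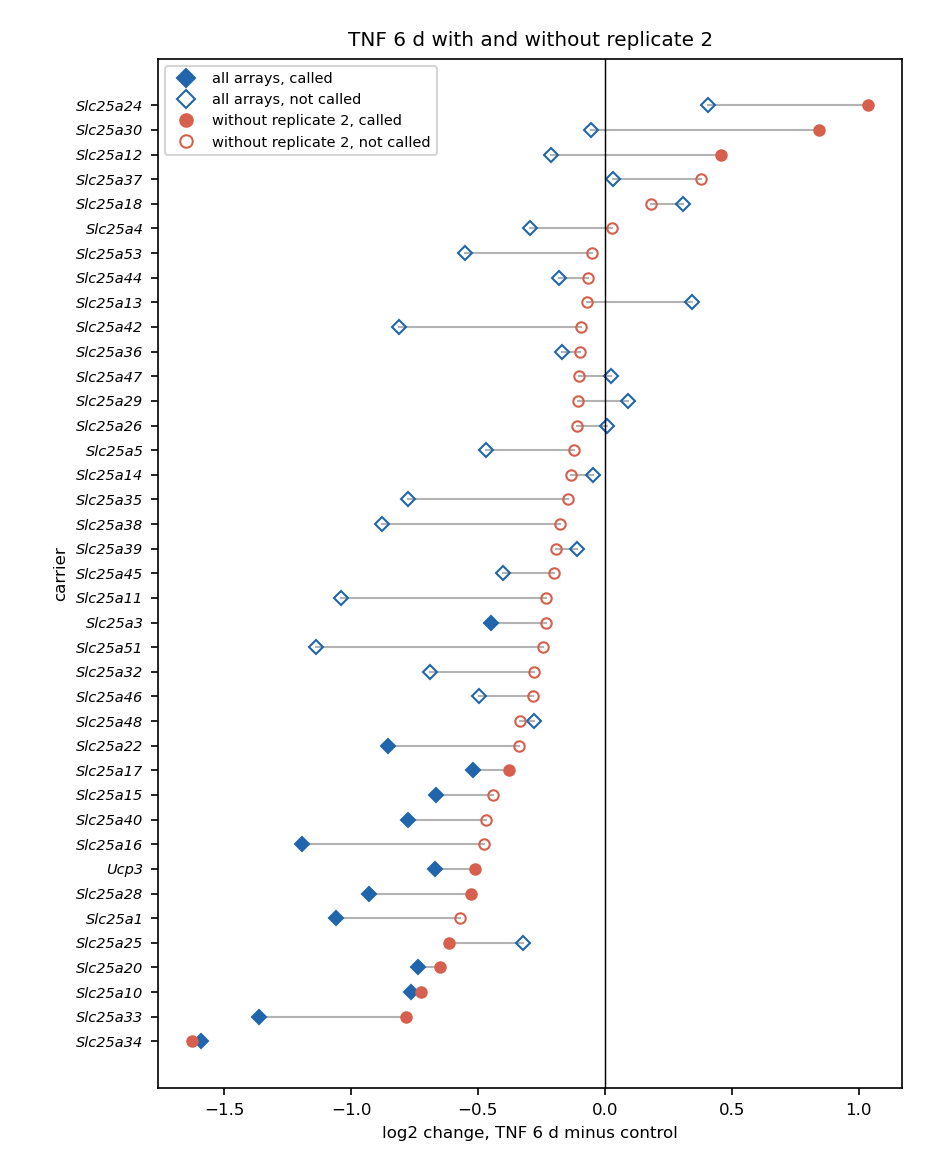
Log2 change at TNF 6 d minus control (horizontal axis) for the 39 tested carriers with all arrays (blue diamonds) and without TNF 6 d replicate 2 (red circles), filled where called, in order of the second value. Slc25a34 and Slc25a10 hardly move between the fits, while Slc25a30 and Slc25a12 cross 0.

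Genes that work with these carriers were taken from lists chosen with earlier results of these data known. Shares of all genes called higher and lower are repeated here. With all arrays Dex gave 1.66% and 0.814% at 2 h, 2.06% and 2.11% at 24 h, and 3.22% and 5.08% at 6 d. TNF gave 2.95% and 0.872% at 2 h, 5.41% and 3.27% at 24 h, and 4.52% and 10.7% at 6 d. Without TNF 6 d replicate 2 these changed. Dex gave 4.32% and 2.84% at 2 h, 6.5% and 6.86% at 24 h, and 10.5% and 13.7% at 6 d. TNF gave 6.67% and 4.13% at 2 h, 13.3% and 12.5% at 24 h, and 10.6% and 10.0% at 6 d. Among 11 tested enzymes of the malate, aspartate and citrate shuttles, 5 fell at TNF 24 h and 6 at TNF 6 d with all arrays, and 8 and 6 without TNF 6 d replicate 2. Gpd1, the cytosolic glycerol-3-phosphate dehydrogenase, fell by 1.40 ± 0.11 (adjusted p = 6.16e-08) and Me1, malic enzyme, by 1.32 ± 0.29 (adjusted p = 0.00551) at TNF 24 h. At Dex 6 d, 2 of the 11 fell, Me1 among them with -1.16 ± 0.29, and 1 rose, the mitochondrial Gpd2, with 0.95 ± 0.20; without that array 3 fell and 1 rose. The median change of the list was -0.56 at TNF 24 h, against -0.03 over all genes and -0.23 over the carriers.

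Of 4 tested carnitine shuttle partners of Slc25a20, with all arrays, 2 fell at TNF 24 h and 2 at TNF 6 d. They were Cpt2, which releases acyl-CoA in the matrix, with -1.19 ± 0.23 and -1.38 ± 0.23, and Crat, carnitine acetyltransferase, with -0.94 ± 0.14 and -1.16 ± 0.14. Cpt1a, the outer-membrane entry step, fell by 0.81 ± 0.16 at Dex 24 h (adjusted p = 0.00585). Without TNF 6 d replicate 2, 1 of the 4 rose and 2 fell at both TNF 24 h and TNF 6 d. In that fit 1 rose and 1 fell at both Dex 24 h and Dex 6 d. The one that rose under Dex was Slc22a5, with 0.38 ± 0.11 at 24 h and 0.45 ± 0.11 at 6 d. Of 15 ATP synthase subunits, 4 fell at TNF 24 h and 8 at TNF 6 d with all arrays, and 12 and 8 without replicate 2. Atp5a1, a catalytic-head subunit, changed by -0.98 ± 0.28 at TNF 24 h.

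Among 10 tested mitochondrial enzymes of amino acid and one-carbon metabolism, 3 rose at Dex 24 h and 3 at Dex 6 d, and 1 fell at Dex 24 h. Mthfd2, a folate enzyme, rose by 1.99 ± 0.26 at Dex 2 h, 2.84 ± 0.26 at 24 h and 2.57 ± 0.26 at 6 d. Glud1, glutamate dehydrogenase, rose by 1.42 ± 0.34 at Dex 6 d. At TNF 24 h, 2 rose, Aldh18a1 with 0.89 ± 0.26 and Mthfd1l with 0.77 ± 0.23, and at TNF 6 d 2 fell, among them Bckdha, a subunit of the branched-chain ketoacid dehydrogenase, with -1.25 ± 0.24. Leaving out TNF 6 d replicate 2, 5 rose and 1 fell at Dex 24 h, 5 rose and 3 fell at Dex 6 d, 3 rose and 3 fell at TNF 24 h, and 1 fell at TNF 6 d.

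Of 7 tested iron and heme genes, 1 rose at TNF 24 h, the iron transporter Slc11a2, with 1.05 ± 0.22, in the same group as Slc25a37. At TNF 6 d 2 fell, among them Alas1, the first heme enzyme, with -1.40 ± 0.32 on all arrays and -0.80 ± 0.13 without replicate 2. Without that array the list had 1 gene higher and 4 lower at TNF 24 h, Alas1 among them with -0.92 ± 0.11 (adjusted p = 3.05e-06), 1 higher and 2 lower at Dex 6 d, 2 lower at TNF 2 h and 3 lower at TNF 6 d. The transferrin receptor Tfrc fell by 1.67 ± 0.32 at Dex 24 h. Among 20 tested other mitochondrial transporters, 1 rose and 1 fell at Dex 6 d, beside 3.22% and 5.08% of all genes. At TNF 24 h 1 rose and 1 fell, beside 5.41% and 3.27%, and at TNF 6 d 1 rose and 3 fell, beside 4.52% and 10.7%. In the fit without TNF 6 d replicate 2, Dex raised 3 transporters at 24 h (6.5%), and raised 3 and lowered 3 at 6 d (10.5% and 13.7%). TNF raised 2 and lowered 5 at 24 h (13.3% and 12.5%), and raised 1 and lowered 3 at 6 d (10.6% and 10.0%). The serine transporter Sfxn1 rose by 0.54 ± 0.13 at Dex 6 d and fell by 0.80 ± 0.13 at TNF 24 h.

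Of 11 tested thermogenic and mitochondrial regulators, 2 fell at TNF 2 h, 1 at TNF 24 h and 4 at TNF 6 d. When TNF 6 d replicate 2 was left out, 3 fell at TNF 2 h, 4 at TNF 24 h and 4 at TNF 6 d, where 1 rose. At TNF 2 h the coactivator Ppargc1b changed by -1.98 ± 0.26 (adjusted p = 4.73e-05) and the nuclear receptor Esrra by -0.82 ± 0.17 (adjusted p = 0.00613). Under Dex, 1 fell at 2 h, 1 at 24 h and 2 at 6 d, and 1 rose at 6 d. With all arrays, the one that fell at Dex 2 h was Ppargc1b, with -1.23 ± 0.26 (adjusted p = 0.0101), and it rose at Dex 6 d, with 0.87 ± 0.26 (adjusted p = 0.0425). Without TNF 6 d replicate 2, 2 fell at Dex 2 h, among them Ppargc1a, with -1.49 ± 0.18 (adjusted p = 7.21e-06). In that fit 1 rose and 2 fell at both Dex 24 h and Dex 6 d. Cox7a1, a cytochrome oxidase subunit of brown fat and muscle, changed by -3.27 ± 0.43 at Dex 6 d and by -3.19 ± 0.43 at TNF 6 d. Counts of these lists were read beside the shares of all genes given before the first list, and the lists were not tested as sets. Counts near those shares are not read as particular to a list.

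The 7 carriers too dim to test were Slc25a2, Slc25a23, Slc25a27, Slc25a31, Slc25a41, Slc25a54 and Ucp1. Their means over all arrays ran from 3.38 for Slc25a31, the ADP/ATP carrier of the testis, to 5.00 for Slc25a27. Slc25a2, Slc25a31, Slc25a41, Slc25a54 and Ucp1 were above the brightness level on 0 of the 21 arrays, and the other 2 on 1 array each.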

How the data were processed

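Per the submitters' processing notes, the authors normalised the arrays with RMA, for which no version is given. The deposited values, which run up to 15.06, were read as log2 expression, the scale RMA gives; the base is not stated in the labels. Of 45101 probe sets, 34958 name 1 gene, 932 several and 9211 none, and 34754 of the single-gene probe sets were matched to RefSeq by gene identifier to take the current symbol. Each gene took its brightest single-gene probe set, and carriers sharing sequence may share signal. Testing was limited to genes above 5.34, the median of all values, on 3 or more arrays.

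All 21 arrays entered 1 limma fit across all genes (limma 3.58.1, R 4.3.3, data.table version 1.17.8) with a mean per group, 14 residual degrees of freedom and trended empirical Bayes moderation. Summaries and plots used Python 3.11.15 with pandas 2.3.3, numpy 2.4.6 and matplotlib 3.10.9. The 13 comparisons were the 6 treated groups against control, Dex against TNF at 3 times and 4 pairs of neighbouring times, with Benjamini-Hochberg adjustment over 12156 genes. Arrays have no sequencing depth, so 3 arrays per group limit the precision.

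The carriers, lists and settings were chosen with earlier results of these data known. Array values are given for carriers called in at least 1 comparison against control, or in at least 2 without TNF 6 d replicate 2, and for carriers known for fat cells. From each list, up to 2 called genes per comparison with the largest change could be named. Arrays of the same number correlated above 0.1 in every pair only for Dex 24 h against control (0.233 to 0.447) and Dex 24 h against TNF 24 h (0.207 to 0.270). Other settings were no brightness filter, the mean of all probe sets, median centring, quantile normalisation, array weights, a replicate block, only the groups compared and leaving out each array. A fit of only the groups compared together with the block, and one without the 4 arrays whose 3' minus 5' difference was above 0.5, were added after seeing the data.

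The fit was tested on simulated data for TNF 24 h against control with 12156 genes. Of changes of 0.5, 1, 2 and 4, 8%, 50%, 94% and 100% were recovered with 3.08% of calls false. Without TNF 6 d replicate 2 these were 60%, 94%, 100% and 100% with 7.81% false. For each gene, all simulated arrays had the same spread, taken from the fit. On the real arrays TNF 6 d replicate 2 stood apart, so these rates need not hold for the real comparison.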

Additional observations from a re-analysis of the deposited data

Results flagged for a closer look

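Carriers whose level differed between neighbouring times of 1 agent, each called by limma with all arrays, were as follows. Each was also called without TNF 6 d replicate 2, and the values are from all arrays. From 2 h to 24 h of Dex, Slc25a18 changed by -0.65, Slc25a26 by 0.52 and Slc25a33 by -1.27. From 24 h to 6 d of Dex, Slc25a10 changed by -0.60. From 2 h to 24 h of TNF, Slc25a10 changed by -0.95, Slc25a17 by -0.63, Slc25a3 by -0.53, Slc25a37 by 1.03 and Ucp3 by 0.79. From 24 h to 6 d of TNF, Slc25a18 changed by -1.26, Slc25a28 by -1.07 and Slc25a37 by -0.89. Slc25a18 was tested only because treated arrays passed the brightness level. At 2 h, Slc25a29 rose under Dex and fell under TNF, with a tested Dex minus TNF difference of 1.86. Calls lost on leaving out single arrays are given with the carriers above for Slc25a33 and Slc25a37; those of Slc25a18 and Slc25a26 from 2 h to 24 h of Dex were lost without 4 and 14 of the 21 arrays in turn, those of Slc25a10 from 24 h to 6 d of Dex without 3, those of Slc25a17 and Slc25a3 from 2 h to 24 h of TNF without 4 and 5, and that of Slc25a28 without TNF 24 h replicate 3 (adjusted p = 0.112).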

How the results depend on the processing

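Counts of called carriers under single alternatives that moved them by more than 1.5 times are given against all arrays, by group compared with control unless a second group is named. The main counts were 2 at Dex 2 h, 2 at Dex 24 h, 5 at Dex 6 d, 3 at TNF 2 h, 6 at TNF 24 h, 13 at TNF 6 d, 4 at Dex 2 h minus TNF 2 h, 7 at Dex 24 h minus TNF 24 h, 17 at Dex 6 d minus TNF 6 d and 12 at neighbouring times summed. With array weights they were 9 at Dex 2 h, 15 at Dex 24 h, 17 at Dex 6 d, 14 at TNF 2 h, 23 at TNF 24 h, 21 at TNF 6 d, 11 at Dex 2 h minus TNF 2 h, 28 at Dex 24 h minus TNF 24 h, 26 at Dex 6 d minus TNF 6 d and 58 at neighbouring times summed. With only the groups compared they were 6 at Dex 2 h, 6 at Dex 24 h, 9 at Dex 6 d, 0 at TNF 6 d, 17 at Dex 24 h minus TNF 24 h, 0 at Dex 6 d minus TNF 6 d and 22 at neighbouring times summed. With only those groups and a replicate block they were 6 at Dex 2 h, 8 at Dex 24 h, 8 at Dex 6 d, 0 at TNF 6 d, 18 at Dex 24 h minus TNF 24 h, 0 at Dex 6 d minus TNF 6 d and 27 at neighbouring times summed. The share of all genes is not given for array weights, the fits of only the groups compared, quantile normalisation, median centring or the replicate block. Nor is it given for leaving out single arrays other than TNF 6 d replicate 2. Between treated groups it is not given for the fit without the 4 arrays of raised difference. Counts with no share given are not read as particular to the carriers. Without the 4 arrays of raised 3' minus 5' difference they were 11 at Dex 2 h, 9 at Dex 24 h, 14 at Dex 6 d, 9 at TNF 2 h, 22 at TNF 24 h, 23 at TNF 6 d, 11 at Dex 2 h minus TNF 2 h, 22 at Dex 24 h minus TNF 24 h and 40 at neighbouring times summed. Quantile normalisation gave 0 at Dex 24 h. Median centring gave 3 at Dex 6 d. Leaving out each array in turn gave 2 to 6 at Dex 2 h, 0 to 6 at Dex 24 h, 2 to 13 at Dex 6 d, 2 to 5 at TNF 2 h, 3 to 14 at TNF 24 h, 3 to 23 at TNF 6 d, 3 to 6 at Dex 2 h minus TNF 2 h, 6 to 20 at Dex 24 h minus TNF 24 h, 8 to 20 at Dex 6 d minus TNF 6 d and 8 to 28 at neighbouring times summed. The highest counts came without TNF 6 d replicate 2, except at TNF 6 d and Dex 6 d minus TNF 6 d, where they came without its replicate 1 or 3; the count of 0 at Dex 24 h came without control replicate 1 and that of 3 at TNF 6 d without control replicate 2. The replicate block, in the fit of all arrays, gave 2 carriers at Dex 24 h and 8 at Dex 24 h minus TNF 24 h; in the fit of only those groups the counts were 8 with the block and 6 without it, and 18 and 17. In the comparisons without such pairing the numbers are only names. Signs turned for Slc25a12 at TNF 6 d (0.29 with the mean of all probe sets, 0.60 with array weights, 0.46 without TNF 6 d replicate 2 and without the 4 arrays of raised difference, from -0.61 without replicate 3), Slc25a30 at TNF 6 d (0.33, 0.98, 0.84 and 0.84 in the same settings, 0.14 without control replicate 3, from -0.52 without TNF 6 d replicate 1), Slc25a24 at Dex 6 d minus TNF 6 d (0.088 and 0.085 without TNF 6 d replicates 1 and 3, -0.86 without replicate 2) and Slc25a3 at TNF 6 d minus TNF 24 h (-0.000478 without TNF 6 d replicate 3, up to 0.34 without replicate 2). Over 135 single-carrier results and their alternatives, 3387 kept their direction and side of the threshold, 377 lost a call, 274 gained one and 12 turned. The cause of these shifts was not tested. Small changes without a call are not shown to be absent. Changes of 0.5 were rarely recovered in simulation with all arrays, although there the spread was the same on every array, unlike on the real ones.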
